A study of Homo sapiens with 2 samples.

Results

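The genes described are 7 human DNA repair genes that bear on alkylating drugs, chosen by symbol: MGMT, the mismatch repair genes MSH6 and PMS2, and the base excision repair genes MPG, APEX1, PARP1 and XRCC1. Of these 7, 6 had a row among the 21445 genes of the FPKM table, 14376 of them protein-coding, and MGMT had none under its symbol or its Ensembl identifier. The levels come from 1 mRNA library of U87MG, an established human glioblastoma cell line that was untreated and grown in MEM with 10% FBS and 1% Pen-Strep. FPKM is the number of sequenced fragments scaled by gene length and library size, so levels of different genes can be set side by side. The series holds 2 libraries, this one and a small RNA library of the same line. With no replicate, no control cell and no drug-treated culture, no value has an error, no difference was tested, and there is no spread to set close levels against.

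Alkylating drugs such as temozolomide, the standard chemotherapy of glioblastoma, add methyl groups to DNA bases. The methyl group on the oxygen of guanine is the most toxic, and MGMT takes it off in a single step, which uses up the MGMT protein. Where it stays, guanine pairs with thymine, and mismatch repair acts on the new strand again and again until breaks form. The more frequent methyl groups on the nitrogens of guanine and adenine are removed by base excision repair: a glycosylase takes out the base, a nuclease cuts the strand, and a polymerase and a ligase fill and seal the gap. Silencing of MGMT by methylation of its promoter is a clinical marker of response to temozolomide in glioblastoma.

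The promoter of MGMT, the only gene of the 7 with no row, is printed first because methylation of its CpG dinucleotides is what is read in the clinic. That of MSH6 follows because, among the 6 listed genes, its most CpG-rich window held the most CpG dinucleotides. Each window runs from 250 bases before to 50 bases after a RefSeq start, on GRCh38.p14, plus strand, with every CpG in capitals. MGMT lies at chr10:129466991-129467290 and MSH6 at chr2:47782895-47783194.

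MGMT promoter: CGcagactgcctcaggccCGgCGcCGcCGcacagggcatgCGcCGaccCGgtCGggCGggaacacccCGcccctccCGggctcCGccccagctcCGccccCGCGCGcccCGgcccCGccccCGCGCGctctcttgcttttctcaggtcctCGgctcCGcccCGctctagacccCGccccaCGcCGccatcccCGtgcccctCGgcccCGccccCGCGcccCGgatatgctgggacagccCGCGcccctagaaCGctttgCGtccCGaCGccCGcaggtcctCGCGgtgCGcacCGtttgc

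MSH6 promoter: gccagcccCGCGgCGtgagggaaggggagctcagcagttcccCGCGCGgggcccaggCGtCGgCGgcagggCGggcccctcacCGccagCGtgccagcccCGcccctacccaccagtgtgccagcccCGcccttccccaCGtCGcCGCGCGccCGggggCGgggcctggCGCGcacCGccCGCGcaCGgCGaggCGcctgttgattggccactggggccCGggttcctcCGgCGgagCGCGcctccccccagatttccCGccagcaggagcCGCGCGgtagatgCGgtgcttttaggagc

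MGMT, the methyltransferase that reverses the guanine lesion, had no level in this table. Every listed gene had an FPKM above 0, the lowest being 3.04e-06, so the table holds no row at 0. A missing row has no upper limit, since the depth of the library is not known, and it was common: of 20056 RefSeq coding genes, 13878 (69.2%) were matched to a row. On chromosome 10, which carries MGMT, the share was 72.3%. RefSeq here is on GRCh38.p14 and the processing notes name hg19 and GRCh37, so some unmatched genes may not be in the annotation used. Low levels were listed too, with 861 coding genes below 0.1 FPKM. No methylation data were analysed here.

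The genes on either side of MGMT were listed about as often as coding genes in general. Of the 10 coding genes on each side in RefSeq order, 15 of 20 had a row, against 69.2% of RefSeq coding genes. At 1 FPKM or more, the level taken here as detected, stood 10 of the 20, against 54.4% of RefSeq coding genes. MKI67, the proliferation marker directly next to MGMT, was at 23.7 FPKM. On the other side, the transcription factor EBF3 was at 0.701 FPKM and the glutaredoxin GLRX3 at 46.1 FPKM. The highest of the 20 were BNIP3, a mitochondrial cell death and mitophagy protein, at 179 FPKM and the metalloproteinase ADAM12 at 95.1 FPKM. The neighbours with no row were NPS, FOXI2, CLRN3 and 2 predicted genes without a name. No pseudogene of MGMT was found by symbol in RefSeq or in the table.

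**Figure D1:**
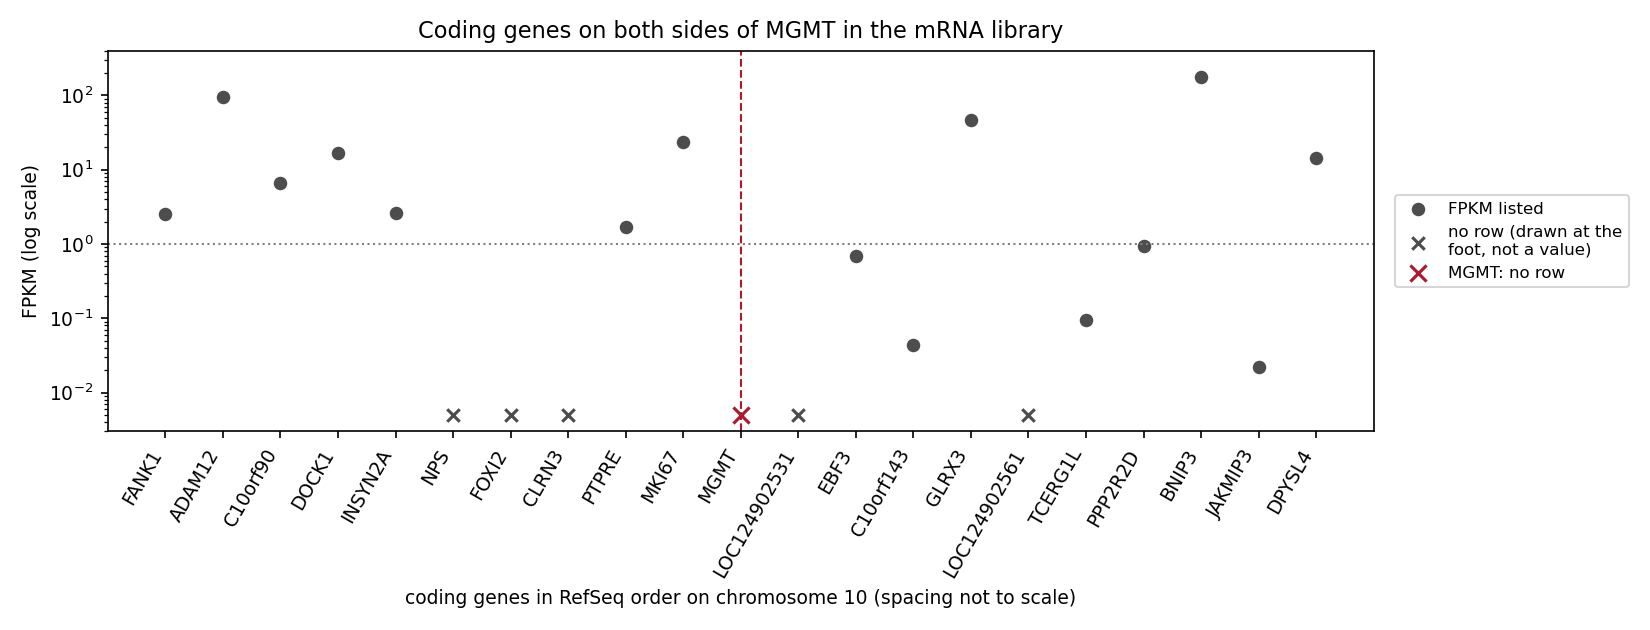
FPKM (log scale) of the 10 coding genes on each side of MGMT in RefSeq order, 1 point per gene, with crosses at the foot for genes with no row. MKI67, next to MGMT, was at 23.7 FPKM, and 15 of the 20 neighbours had a row.

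The MGMT window held 45 CpG dinucleotides in 300 bases, with a GC content of 78.7%. Against all 35116 promoter windows, whose median was 14, this was at percentile 96.8. The windows of the other genes held 39 in MSH6 (the highest of its 4 windows), 34 in MPG, 33 in PARP1, 31 in XRCC1, 24 in PMS2 and 19 in APEX1. The other MSH6 windows held 26 or 27, fewer than those of MPG, PARP1 and XRCC1. Among 15843 coding genes, each taken by its most CpG-rich window, MGMT was at percentile 94.5. CpG-rich promoters usually went with a listed gene: of the 945 coding genes with at least 45 CpG dinucleotides, 822 had a row (86.98%) and 75.6% were at 1 FPKM or more. MGMT was among the 123 (13.0%) with no row. With 0 to 9 CpG dinucleotides, 15.2% of coding genes were at 1 FPKM or more, against 51.7% with 10 to 19, 72.2% with 20 to 29, 75.2% with 30 to 39 and 77.8% with 40 to 69.

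**Figure D2:**
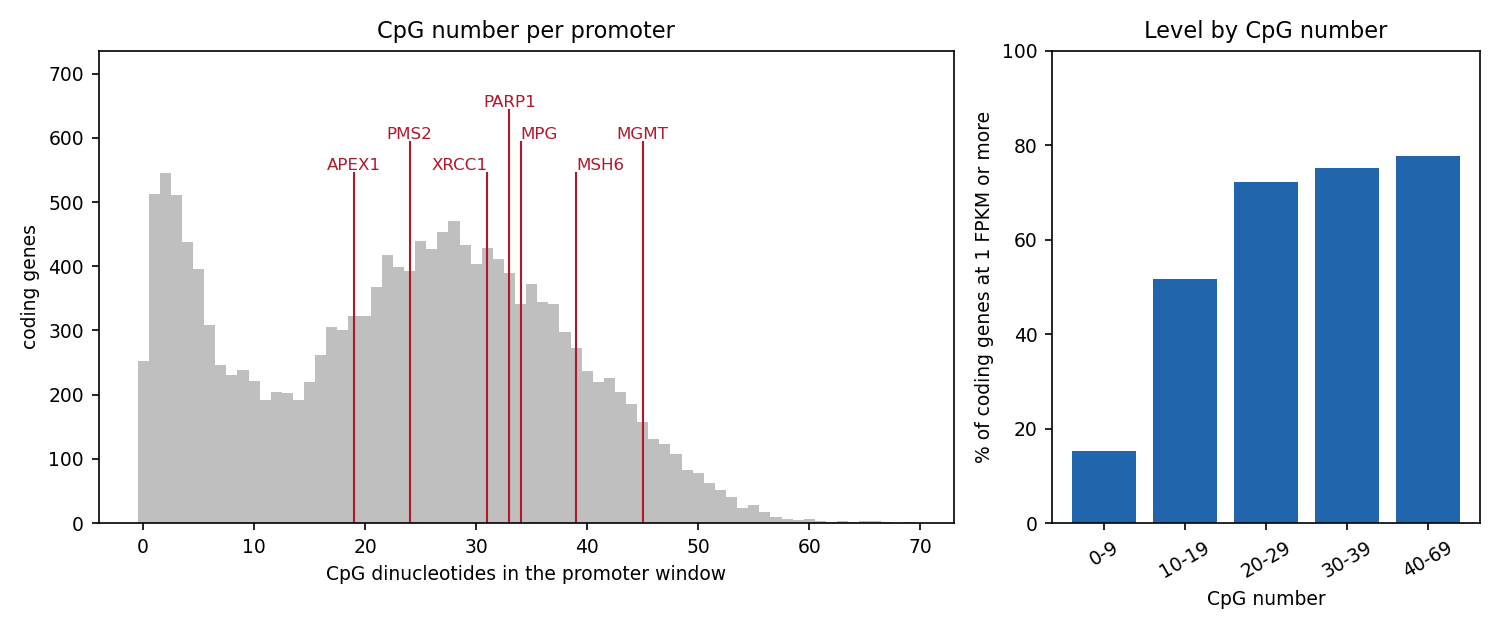
Left, the number of coding genes by CpG dinucleotides in the most CpG-rich promoter window, with red lines at the 7 repair genes, from 19 in APEX1 to 45 in MGMT. Right, the percentage of coding genes at 1 FPKM or more by CpG number, which went from 15.2% to 77.8%.

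The GC box GGGCGG, the core of the site bound by SP1-type factors, was found 8 times in the MGMT window, counting both strands and copies that share a base. At least 1 copy stood in 45.0% of all windows, and at least 8 in 0.812% (285 windows). Each GC box holds a CpG, so the counts overlap with those above. The MSH6 window printed above held 5 copies, that of MPG 3, those of PMS2 and PARP1 2, that of XRCC1 1, and that of APEX1 none. A match of letters describes the window and does not show that a factor binds there.

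The other direct reversal genes on the list were both listed. ALKBH2 and ALKBH3 are oxygenases that remove methyl groups from the nitrogens of adenine and cytosine, and neither acts on the lesion of MGMT. ALKBH3 was at 30.4 FPKM, percentile 83.2 among listed coding genes, and ALKBH2 at 8.78 FPKM, percentile 52.9.

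The 6 repair genes with a row were all expressed, at levels from 5.41 FPKM (PMS2) to 41.5 FPKM (APEX1), a 7.66-fold range. All 6 were at 1 FPKM or more, as were 77.5% of listed coding genes and 64.6% of all listed genes. At 10 FPKM or more stood 5 of the 6, against 43.8% of listed coding genes. Their median was 15.8 FPKM, and that of listed coding genes 7.82 FPKM. In descending order, APEX1 and MSH6 were followed by PARP1, MPG and XRCC1, which lay within 1.22-fold of each other, and then by PMS2. Set against all coding genes, the 6 spanned the middle and upper range, since 1674 coding genes were above APEX1 and 8290 above PMS2.

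**Figure D3:**
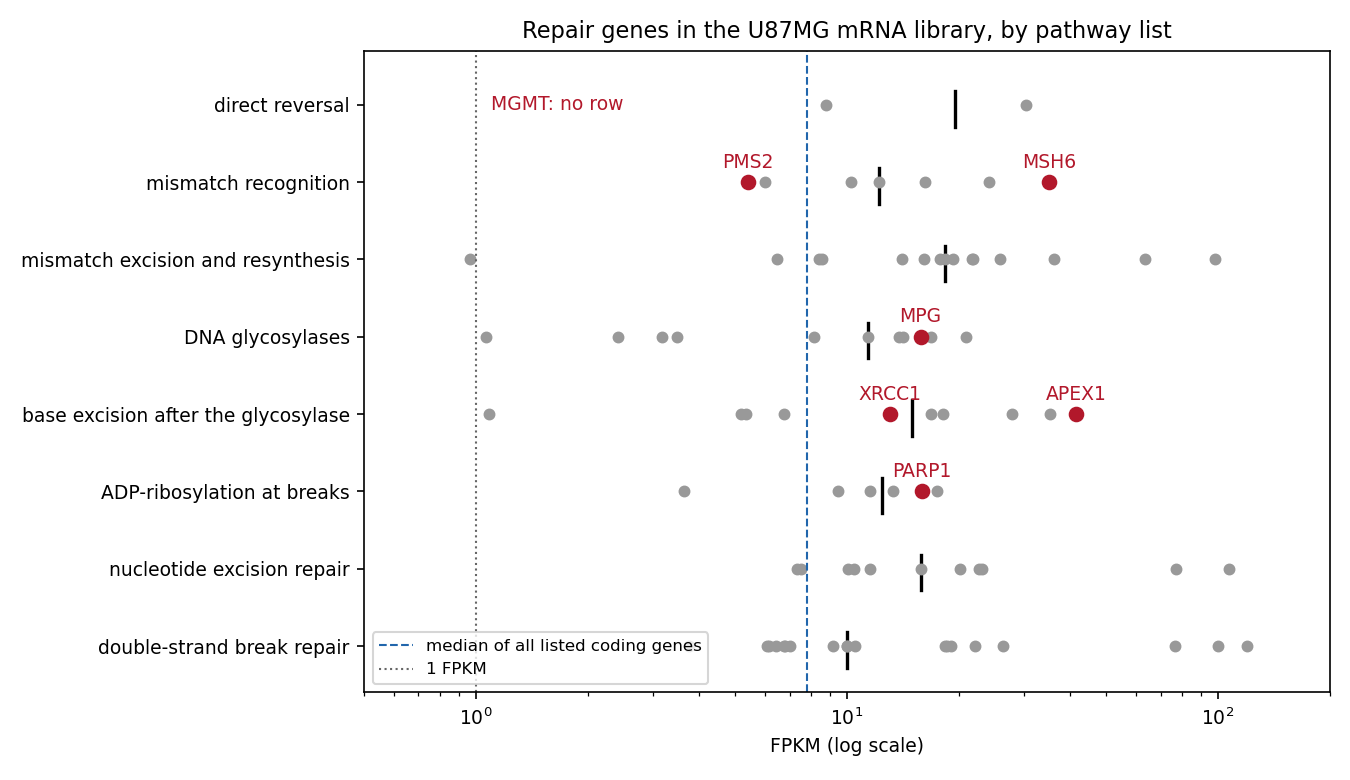
FPKM (log scale) of the genes of 8 repair lists, 1 point per gene, with the 6 listed genes of interest in red, a black tick at each list's median and the median of all listed coding genes (7.82 FPKM) as a dashed line. APEX1 (41.5 FPKM) and MSH6 (35.1 FPKM) stand at the right, PMS2 (5.41 FPKM) left of the dashed line, and MGMT had no row.

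MSH6, part of the complex that finds base mismatches, was at 35.1 FPKM, percentile 85.6 among listed coding genes. MSH3, which finds larger loops in a like complex, was at 6.03 FPKM, so MSH6 was 5.82 times MSH3 in FPKM. The RNA level says nothing of how much of each complex is formed. FBXO11, a ubiquitin ligase gene whose RefSeq span overlaps that of MSH6, was at 15.5 FPKM, and whether the counting used strand is not given in the sources used here.

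PMS2, which cuts the new strand after a mismatch is found, was at 5.41 FPKM, percentile 42.3 among listed coding genes. It was the only one of the 6 listed genes of interest below the coding median. Its relatives PMS1 and MLH3 were at 10.3 and 24.2 FPKM, or 1.90 and 4.47 times PMS2.

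The level of PMS2 is uncertain because the gene has many near-identical copies. RefSeq lists 15 pseudogene copies by symbol, all on chromosome 7, and 5 of these had a row. PMS2CL was at 5.30 FPKM, 97.9% of PMS2 itself. PMS2P1 was at 2.88, PMS2P4 at 2.77, PMS2P3 at 1.84 and PMS2P5 at 0.392 FPKM, and a read-through transcript named for PMS2P11 at 0.369 FPKM. The 6 copies summed to 13.6 FPKM, 2.50 times PMS2. How reads that match several genes were shared out is not given in the sources used here, so reads of PMS2 may have been counted under its copies or the reverse, and this was not tested. Of the other members, only PARP1 had copies by symbol in RefSeq, 2 in number, and neither had a row.

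**Figure D4:**
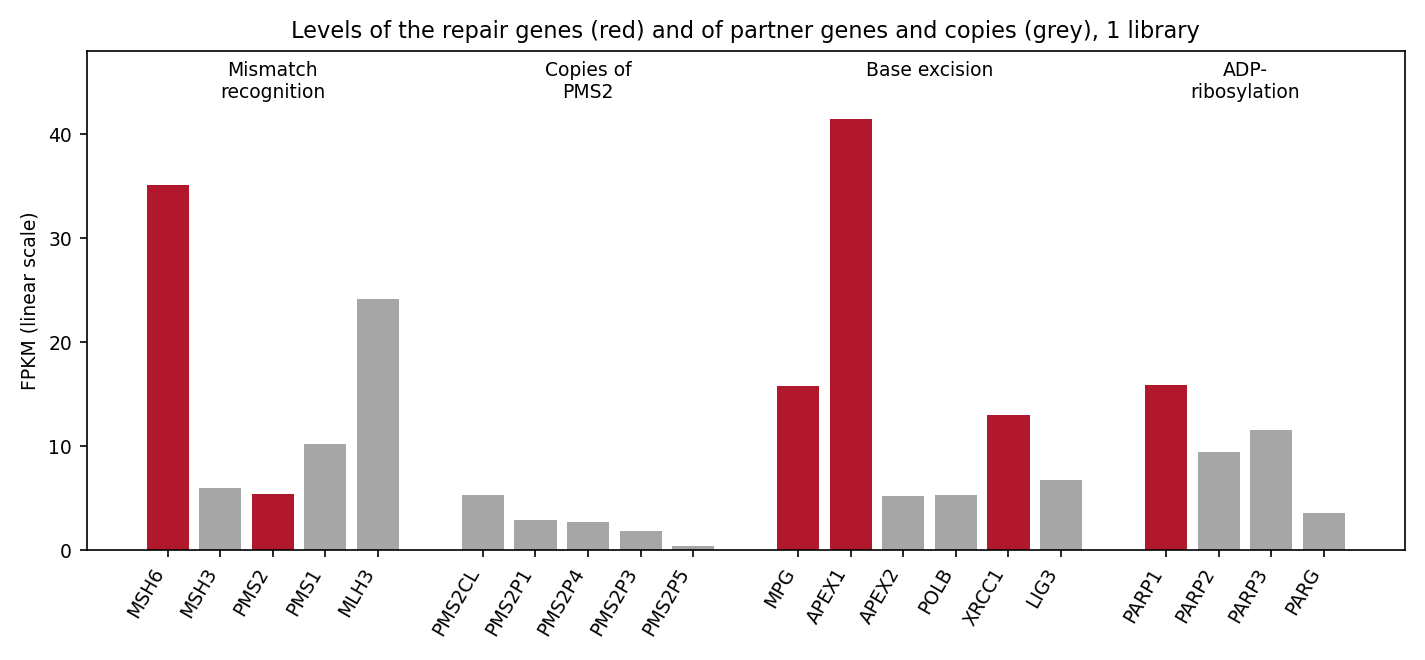
FPKM (linear scale, from 0) of the 6 listed genes of interest (red) beside partner genes and copies of PMS2 (grey), 1 bar per gene and no error because there was 1 library. MSH6 was 5.82 times MSH3, APEX1 was 7.98 times APEX2, and PMS2CL was close to PMS2, at 5.30 against 5.41 FPKM.

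The steps after mismatch recognition were also expressed. Of 15 excision and resynthesis genes, all had a row, as did 69.2% of RefSeq coding genes. At 1 FPKM or more stood 14, against 77.5% of listed coding genes. Their median was 18.4 FPKM, and that of listed coding genes 7.82 FPKM. PCNA, the sliding clamp of replication, was highest at 98.1 FPKM, followed by POLD2, a subunit of DNA polymerase delta, at 63.7 FPKM. The lowest were RFC2, a subunit of the clamp loader, at 0.961 FPKM and the ligase LIG1 at 6.47 FPKM. These genes also serve replication, so their level is not one of repair alone.

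MPG, the glycosylase that removes methylated adenine and guanine, was at 15.8 FPKM, percentile 68.3 among listed coding genes. All 11 glycosylases on the list had a row and were at 1 FPKM or more. For comparison, 77.5% of listed coding genes and 54.4% of RefSeq coding genes were at 1 FPKM or more. Their median was 11.4 FPKM, and MPG ranked after SMUG1 (20.9 FPKM) and UNG (16.9 FPKM), which both remove uracil. MBD4 and TDG, which act on thymine opposite guanine, were at 14.1 and 13.8 FPKM, and NEIL2, for oxidised bases, at 11.4 FPKM. The other glycosylases for oxidative damage were lower, with OGG1 at 8.13, NEIL3 at 3.48, MUTYH at 3.17, NTHL1 at 2.41 and NEIL1 at 1.07 FPKM. NPRL3, a regulator of nutrient signalling whose span overlaps MPG in RefSeq, was at 1.16 FPKM.

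APEX1, the nuclease that cuts the strand at the empty site, was the highest of the 6 genes with a row, at 41.5 FPKM, percentile 88.4 among listed coding genes. Its relative APEX2 was at 5.19 FPKM, and APEX1 was 7.98 times as high. It was also 2.63 times MPG, which acts before it, and 7.74 times POLB (5.35 FPKM), the polymerase that fills the gap after it. PIP4P1, a lipid phosphatase gene listed as TMEM55B that overlaps APEX1 in RefSeq, was at 12.8 FPKM.

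The APEX1 window had the fewest CpG dinucleotides of the 7 but 3 copies of the E-box CACGTG, the palindrome bound by USF- and MYC-type factors. At least 1 copy stood in 7.26% of the 35116 windows and at least 3 in 33 windows (0.0940%). MPG had 1 copy, and the windows of the other 5 genes had none. The E-box and the GC box were picked for description from several motifs counted, so their shares are those of chosen motifs. Of the other motifs, CCAAT stood 3 times in each PMS2 window and in 34.6% of all windows. No window of the 7 genes held TATAAA or the ETS site CCGGAAG. The window is at chr14:20454976-20455275 (GRCh38.p14, plus strand), with the E-boxes in capitals.

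APEX1 promoter: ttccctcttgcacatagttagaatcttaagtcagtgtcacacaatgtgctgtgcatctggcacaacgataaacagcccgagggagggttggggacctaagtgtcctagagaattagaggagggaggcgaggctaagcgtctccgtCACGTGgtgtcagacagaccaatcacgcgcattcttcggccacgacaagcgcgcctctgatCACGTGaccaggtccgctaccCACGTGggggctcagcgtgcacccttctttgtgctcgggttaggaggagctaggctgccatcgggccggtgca

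XRCC1, the scaffold that holds the ligase LIG3 and other repair proteins at a break, was at 13.0 FPKM, percentile 63.1. LIG3 was at 6.77 FPKM and POLB at 5.35 FPKM, so XRCC1 was 1.93 times the first and 2.44 times the second. Of the end-processing proteins that dock on XRCC1, APTX was at 16.8 FPKM and APLF at 1.08 FPKM. TDP1, which clears blocked ends, was at 27.9 FPKM and the flap nuclease FEN1 at 35.2 FPKM. The list of 10 genes acting after the glycosylase had a median of 14.9 FPKM. All 10 were at 1 FPKM or more, as were 77.5% of listed coding genes. PINLYP, a phospholipase inhibitor gene overlapping XRCC1 in RefSeq, was at 9.09 FPKM. Whether the counting used strand is not given, so reads of XRCC1 and PINLYP may be mixed, which was not tested. The same limit holds for MPG with NPRL3 and for APEX1 with PIP4P1.

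PARP1, the sensor that marks strand breaks with ADP-ribose and the main target of PARP inhibitor drugs, was at 15.9 FPKM, percentile 68.5. PARP2 and PARP3, which also respond to breaks, were at 9.45 and 11.5 FPKM, so PARP1 was 1.68 and 1.38 times as high. HPF1, listed under the older symbol C4orf27, directs PARP1 to serine residues and was at 13.3 FPKM. The enzymes that remove the mark differed in level: PARG, which cuts the chain, was lowest of the 6 genes of this list at 3.64 FPKM, and ADPRS, listed as ADPRHL2, which takes off the last unit, was highest at 17.5 FPKM. PARP1 and XRCC1, which PARP1 recruits, differed by 1.22-fold, and MPG and XRCC1 by 1.21-fold.

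The small RNA library gives an independent reading of miRNAs that have been reported to act on MGMT or MSH6. Their mature sequences are shown as the table lists them, with T for U and the seed, bases 2 to 8, in capitals.

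miR-221-3p: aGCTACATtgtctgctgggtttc
miR-222-3p: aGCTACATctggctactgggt
miR-370-3p: gCCTGCTGgggtggaacctggt
miR-181d-5p: aACATTCAttgttgtcggtgggt
miR-767-3p: tCTGCTCAtaccccatggtttct
miR-21-5p: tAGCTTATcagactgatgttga
miR-155-5p: tTAATGCTaatcgtgataggggt

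Of the 7 miRNAs reported for MGMT, 6 had a row, with 3.22% of the 11785001 miRNA reads between them (exact Clopper-Pearson 95% interval 3.21 to 3.23%, for counting error only). Nearly all of this, 98.5%, was miR-221-3p with 277469 reads and miR-222-3p with 96461 reads, which share the seed GCTACAT. miR-370-3p had 3030 reads (0.0257%, interval 0.0248 to 0.0266%) and miR-181d-5p 2481 reads (0.0211%, 0.0202 to 0.0219%). miR-767-3p had 99 reads and miR-603 had 2, and miR-648 had no row. In all, 1224 miRNAs were listed, and a row can rest on only 2 reads, so a row alone is a weak mark of presence. Of the miRNAs reported for the mismatch repair genes including MSH6, miR-21-5p had 6933511 reads and miR-155-5p 6257 reads (0.0531%, 0.0518 to 0.0544%). MSH6 was the second highest of the 6 genes with a row. The series holds no sample in which a miRNA was changed. The levels of a miRNA and of a gene, each from 1 library, do not show an action of one on the other, and this was not tested.

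The labelled cell type was checked by 7 glioma and 10 other markers. VIM (2420 FPKM) and CD44 (560 FPKM) were high, NES was at 1.38 and GFAP at 0.331 FPKM, and SOX2, S100B and OLIG2 had no row. Of 10 markers of immune, endothelial, oligodendrocyte, neuronal, epithelial and red blood cells, CD68, a lysosomal protein, was at 52.3 FPKM, 5 lay between 0.0675 and 0.285 FPKM, and 4 had no row. The labels give an RNA integrity number of 9.3 for total RNA. The 6 listed repair genes summed to 127 FPKM, out of 374744 FPKM over all listed coding genes. Over all listed genes the sum was 3.53e+06 FPKM, and the highest gene, not a coding one, was at 1.44e+06 FPKM.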

How the data were processed

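Levels were taken from 1 mRNA library, with FPKM values deposited by the authors, per the file headers, for each Ensembl gene. Read counts of mature miRNAs, as deposited by the authors per the file headers, came from 1 small RNA library and summed to 11785001 miRNA reads. The Length column, of another unit, was deposited by the authors and was not used. The submitters' processing notes name cutadapt and the builds hg19 and GRCh37. Not given in the sources used here are the aligner, the counter, the annotation, the FPKM program and the mRNA depth. For the mRNA library the labels repeat the small RNA protocol. piRNA counts were not used.

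Genes were matched by Ensembl identifier, then symbol, then older symbol. Percentiles (ties counted equally to both sides) were taken over listed coding genes, and 1 FPKM counted as detected. These rank functions were tested on simulated data. Promoter windows, neighbours, overlaps and gene order came from RefSeq (GRCh38.p14); all 7 members had a promoter entry. Motifs were counted on both strands, and GC boxes also where copies share a base. With 1 library no test was made. Shares of reads have exact Clopper-Pearson 95% intervals; the FPKM values have none.

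The members and lists were chosen with earlier results of these data known. Named genes were all 7 members, all genes of the 5 direct reversal, mismatch recognition, glycosylase, base excision and ADP-ribosylation lists, the 2 highest and 2 lowest of the other lists with any lacking a row, copies, and neighbours of members with no row. Some genes of these lists are not reported here by name. Genes overlapping a member were added after their values were seen. Genes next to a member in level only were also on this rule and are not listed, since 1 library holds no pattern to compare. Python 3.11.15, pandas 2.3.3, SciPy 1.17.1 and matplotlib 3.10.9 were used.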

Additional observations from a re-analysis of the deposited data

How the results depend on the processing

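None of the alternatives could change which genes had a row, since each used the same deposited rows. At a detection level of 0.5 FPKM the 6 listed genes of interest were again all detected, and at 10 FPKM 5 were. Over the 8 repair lists, 80 of 82 genes were at 1 FPKM or more, 81 at 0.5 and 52 at 10 FPKM. Of the 14376 listed coding genes, 11139 (77.5%) were at 1 FPKM or more, 11914 at 0.5 and 6291 (43.8%) at 10 FPKM. The median of the 6 was 15.8 FPKM and became 42.3 when FPKM was rescaled so that coding genes sum to 1e6, by construction of the scale; with MGMT at 0 it was also 15.8. Percentiles ran from 42.3 to 88.4 among listed coding genes, 58.2 to 91.3 among all listed genes, 59.1 to 91.7 among RefSeq coding genes with missing rows at 0, and 25.6 to 85.0 among coding genes at 1 FPKM or more. The low end is PMS2 each time. Each of the 6 had 1 row, so taking the highest row of a symbol gave the same value. Ratios between genes are the same when all genes are scaled by a single factor. They would change with other gene lengths, which was not tested. No paired analysis was possible because there is 1 library of each kind, and no replicate could be left out. The depth behind the FPKM values is unknown, which limits every statement on a missing row.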

Other observations

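The repair pathways for bulky lesions and for double-strand breaks were also expressed. Each of the 11 nucleotide excision repair genes reached 1 FPKM, as did 77.5% of listed coding genes. Their median was 15.8 FPKM, and that of listed coding genes 7.82 FPKM. DDB1, an adaptor of the ubiquitin ligase that finds ultraviolet lesions, was highest at 107 FPKM, and ERCC1, which forms a nuclease with ERCC4, was at 76.9 FPKM. The lowest were XPA, the damage verifier, at 7.32 FPKM and ERCC4 itself at 7.50 FPKM, so the subunits of that nuclease were listed at unlike levels.

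Each of the 19 double-strand break repair genes reached 1 FPKM, as did 77.5% of listed coding genes. Their median was 10.0 FPKM, and that of listed coding genes 7.82 FPKM. The Ku subunits XRCC5 (120 FPKM) and XRCC6 (99.9986 FPKM), which bind broken ends, were highest, above the 6 listed genes of the report. The lowest were the helicase BLM at 3.75 FPKM and XRCC2, of homologous recombination, at 6.10 FPKM.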
